A study of Mus musculus with 10 samples.

Results

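The genes described here encode the enzymes of glycolysis, the pentose phosphate pathway and the tricarboxylic acid (TCA) cycle, with pyruvate dehydrogenase, the malic enzymes and pyruvate carboxylase beside them. They were taken by symbol, 47 genes of 54343 in the table, and each of the 47 symbols matched 1 row. The values are from RNA sequencing of cultured cells of the mouse tumour line MC38 (5 libraries, genotype given as wild type, bought from a vendor) and of MC38.T4 (5 libraries, genotype given as low mesothelin expression). MC38.T4 descends from MC38 cells that carried a huMSLN.pcDNA3.1 vector for human mesothelin. A mesothelin-positive clone, MC38.huMSLN.34, formed tumours in C57/BL6 mice, the dissociated tumour was passaged in dishes, and 1 cell with little mesothelin founded the line. It is therefore a single clone. Both lines grew in the same RPMI1640 medium with fetal bovine serum, glutamine and antibiotics. The description of the lines calls MC38 a colon cancer, and the tissue label calls it melanoma. The comparison asks which enzyme genes differ between this clone and wild-type MC38 cells when both grow in culture. The vector, the cloning, growth in a mouse, passage and the choice of a cell with little mesothelin all lie between the lines. Their effects cannot be told apart here. Nothing in the labels ties the 5 libraries of either line to separate cultures, and p-values then measure only the spread among them, which may be technical.

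Glycolysis splits glucose into pyruvate and yields ATP and NADH. Hexokinase and phosphofructokinase commit the sugar, and the enzymes from glyceraldehyde-3-phosphate dehydrogenase to pyruvate kinase recover the energy. The pentose phosphate pathway draws off glucose-6-phosphate and returns NADPH, which reductive synthesis of fatty acids and sterols consumes, together with ribose for nucleotides. Pyruvate either becomes lactate or enters mitochondria, where pyruvate dehydrogenase feeds acetyl-CoA to the TCA cycle and pyruvate carboxylase refills it. Proliferating tumour cells are known for high glycolysis with lactate release in the presence of oxygen, and several steps have isoenzymes that differ in tissue, regulation or compartment.

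The level of a gene is given in FPKM (fragments per kilobase of gene, scaled to the mapped total of the library), which is per length, so genes can be set beside each other. Differences are MC38.T4 minus MC38 on the log2(FPKM + 1) scale, which understates the change of low genes, and folds are ratios of mean FPKM. A gene was tested when 5 or more libraries reached 1 FPKM, which left 11110 genes. With limma and a threshold of 0.05 on the adjusted p, 86% of them were called, 43.1% as higher in MC38.T4 and 42.9% as lower. With a log2 difference of at least 1 as well, 10% were higher and 7.14% lower. The libraries summed to between 442183 and 484460 FPKM, and single-read steps gave depths between 0.874 and 1.14 relative to MC38 replicate 1. Earlier results of these data set apart MC38 replicate 1, here the library with the lowest sum, and MC38.T4 replicate 4, here the one with the lowest relative depth. Without both, 37 enzyme genes passed as higher and 4 as lower, against 36 and 4 with all libraries. Of 9 epithelial markers 1 (Grhl2) and of 7 melanocyte markers 1 (Mitf) reached the filter, with Cdx2 and Tyr at 0 in every library. The epithelial list summed to 3.35 to 4.13 FPKM in MC38 and 1.15 to 1.47 FPKM in MC38.T4, and the melanocyte list to 1.19 to 1.52 and 1.85 to 2.07 FPKM, so neither tissue named by the labels was borne out by its markers. Within the epithelial list Grhl2 was lower in MC38.T4 (3.59 ± 0.30 to 0.0445 ± 0.0090 FPKM), while Cdh1, which was not tested, averaged 0.0212 ± 0.0080 FPKM in MC38 and 1.00 ± 0.070 in MC38.T4. Of 6 fibroblast and pericyte markers 4 were tested. The sum of all 6 ranged from 28.1 to 31.6 FPKM over the MC38 libraries and from 100.6 to 110.2 FPKM over those of MC38.T4. Highest in MC38.T4 were Dcn (16.8 ± 1.6 to 58.1 ± 3.7 FPKM), Pdgfra (12.4 ± 0.60 to 24.5 ± 0.46) and Pdgfrb (0.191 ± 0.035 to 19.2 ± 0.89). Pdgfrb and Acta2 (0.0445 ± 0.027 to 2.77 ± 0.25 FPKM) passed the filter through MC38.T4 alone. No marker of this list was at 0 in all libraries, but Col1a1 and Lum were not tested and reached at most 0.210 and 0.194 FPKM. The part of this list in the results below was not tested. In bulk RNA, fewer cells of a type and less RNA per cell cannot be told apart. Leukocyte markers summed to at most 1.02 FPKM, with Cd3e and Adgre1 at 0, and endothelial markers to at most 0.620 FPKM.

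Most enzyme genes were higher in MC38.T4. Of the 47 genes, 45 were tested and 2 (Aldoc and Eno2) lay below the filter, and all 45 reached 1 FPKM in all 5 MC38 libraries. Of the 45, 36 rose, 4 fell (Pfkp, Cs, Mdh2 and Dld) and 5 were not called (Pfkfb3, Rpe, Taldo1, Idh3b and Sucla2). That is 80% higher and 8.89% lower, against the 43.1% and 42.9% over all tested genes. The same shares over all tested genes stand behind the counts by pathway below. The genes were chosen with earlier results of these data known, so the contrast is a description. The ranges of the lines did not overlap for 36 genes higher and 4 lower in MC38.T4, where such a gap was seen for 77.4% of all tested genes, 38.4% higher and 38.9% lower. The median log2 difference was 0.71 over the 45 genes, and over all tested genes it was 7.73e-04 with quartiles at -0.46 and 0.48. In 16 genes the rise was at least 1 on the log2 scale, and none of the 4 falls was that large. Summed over the 47 genes, MC38 had 4354 ± 165 FPKM and MC38.T4 7515 ± 47 FPKM (mean ± SD, n = 5 each), or 0.936% ± 0.016 and 1.56% ± 0.015 of all FPKM. In MC38.T4 the sum was 2.07 times as high for the lactate and pyruvate dehydrogenase group, 1.91 times for upper glycolysis and 1.87 times for lower glycolysis. It was 1.60 times as high for the malic enzymes with Pcx, 1.41 times for the pentose phosphate genes and 1.20 times for the TCA group.

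**Figure D1:**
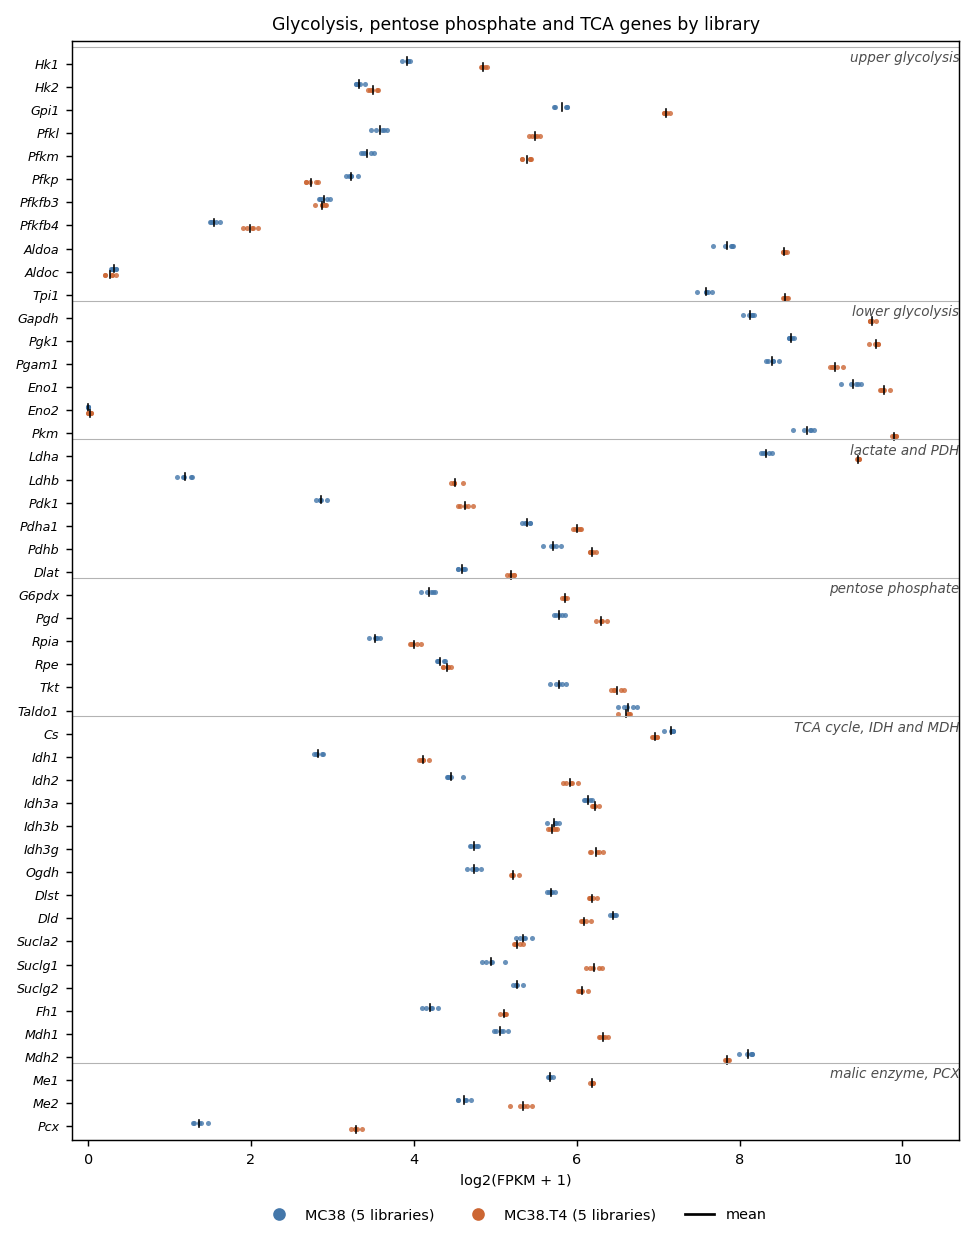
Level of each of the 47 genes in each of the 10 libraries, as log2(FPKM + 1), with points for libraries and black bars for the mean of a line, grouped by pathway. MC38.T4 points lie to the right of the MC38 points without overlap for 36 genes, to the left for Pfkp, Cs, Mdh2 and Dld, and the largest gap is that of Ldhb.

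**Figure D2:**
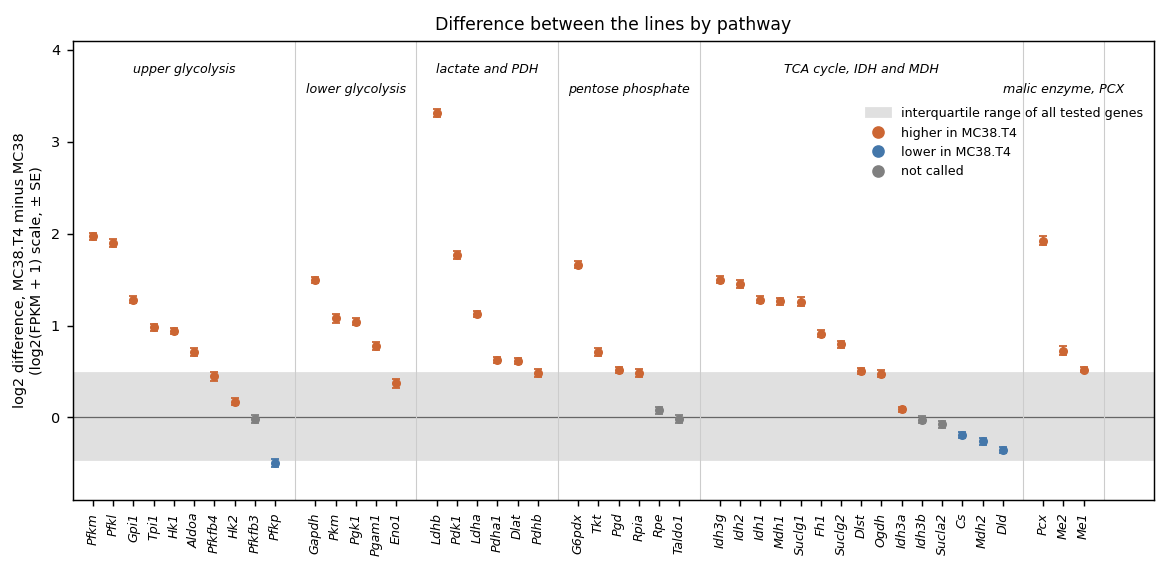
Difference between the lines for the 45 tested genes (points, with bars of 1 SE from limma) on the log2(FPKM + 1) scale, sorted within each pathway, with the interquartile range of all tested genes (-0.46 to 0.48) in grey. All tested genes of lower glycolysis and of the lactate and pyruvate dehydrogenase group lie above 0, while the TCA group runs from -0.35 to 1.5.

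In upper glycolysis 8 of 10 tested genes rose, 1 fell and 1 was not called, with a median log2 difference of 0.82. The phosphofructokinase step, which commits sugar to glycolysis, held the widest spread. Pfkl, the liver-type subunit, stood at 10.1, 11.1, 11.4, 10.6 and 11.8 FPKM in MC38 replicates 1 to 5 and at 44.4, 42.8, 43.8, 41.7 and 46.0 FPKM in MC38.T4 replicates 1 to 5. Pfkm, the muscle-type subunit, stood at 9.52, 9.19, 10.1, 9.41 and 10.3 FPKM in MC38 and at 42.3, 41.9, 39.3, 39.2 and 42.0 FPKM in MC38.T4. Pfkp, the platelet-type subunit, stood at 8.40, 8.37, 8.97, 7.98 and 8.23 FPKM in MC38 and at 5.36, 5.38, 5.60, 6.07 and 5.97 FPKM in MC38.T4. Every MC38.T4 library was above every MC38 library for Pfkl and Pfkm and below every one for Pfkp. Pfkl rose 3.97-fold (log2 difference 1.90, SE 0.042, limma adjusted p = 5.85e-15) and Pfkm 4.22-fold (1.97, SE 0.040, adjusted p = 2.27e-15). Pfkp fell from 8.39 ± 0.36 to 5.68 ± 0.33 FPKM (log2 difference -0.49, SE 0.044, adjusted p = 4.99e-08). The 3 subunits lay within 8.39 to 11 FPKM in MC38, or 37.8%, 33.3% and 28.8% of the step for Pfkl, Pfkm and Pfkp, whereas Pfkl was 7.73 ± 0.53 times as high as Pfkp in MC38.T4, against 1.31 ± 0.083 times in MC38. Their sum went from 29.1 ± 1.2 to 90.4 ± 2.7 FPKM. Markers of skeletal muscle (Ckm, Des and Myh4), where Pfkm is abundant, summed to at most 0.249 FPKM in any library.

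The promoters of Pfkl and Pfkp are shown because these genes of 1 step went opposite ways. They run from 250 bases before to 50 after the start of the gene as RefSeq gives it on GRCm38.p6, a build other than the GRCm39 of the deposited table. Pfkl lies at chr10:78009758-78010057 and Pfkp at chr13:6648722-6649021, both on the minus strand and written 5′ to 3′ along the gene. Capitals mark ACGTG or GCGTG on either strand, the core letters of the element that hypoxia-inducible factors bind.
Pfkl: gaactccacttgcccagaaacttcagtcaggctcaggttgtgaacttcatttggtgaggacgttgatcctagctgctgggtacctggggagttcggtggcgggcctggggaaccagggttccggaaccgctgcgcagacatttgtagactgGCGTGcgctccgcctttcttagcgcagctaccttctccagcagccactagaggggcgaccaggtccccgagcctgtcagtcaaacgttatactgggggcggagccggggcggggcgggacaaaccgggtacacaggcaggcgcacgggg
Pfkp: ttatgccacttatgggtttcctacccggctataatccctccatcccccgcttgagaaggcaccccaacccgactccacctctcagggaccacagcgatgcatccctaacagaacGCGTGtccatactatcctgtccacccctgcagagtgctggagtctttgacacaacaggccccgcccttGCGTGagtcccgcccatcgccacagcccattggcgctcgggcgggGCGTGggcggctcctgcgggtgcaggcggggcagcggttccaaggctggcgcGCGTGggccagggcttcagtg
The Pfkl window held GCGTG 1 time and the Pfkp window 4 times, and ACGTG was in neither. These matches describe letters and nothing about a factor.

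The hexokinases, which phosphorylate glucose, both rose and by different amounts. Hk1, the widely expressed form, was at 13.4, 14.5, 14.2, 14.1 and 14.3 FPKM in MC38 and at 27.4, 27.6, 27.7, 28.8 and 28.2 in MC38.T4. Hk2, the form usually tied to insulin-sensitive tissue and tumours, was at 9.53, 8.80, 8.91, 8.81 and 9.09 FPKM in MC38 and at 10.2, 9.97, 9.82, 10.8 and 10.6 in MC38.T4. Both had ranges that did not overlap, but those of Hk2 were close. Hk1 rose 1.98-fold (log2 difference 0.94, SE 0.033, adjusted p = 6.26e-13) and Hk2 1.14-fold (0.17, SE 0.039, adjusted p = 0.000742), and the share of Hk1 in their sum went from 60.9% ± 1.4 to 73.1% ± 0.53. Gpi1, which turns glucose-6-phosphate into fructose-6-phosphate, rose from 55.5 ± 3.1 to 136 ± 2.7 FPKM (2.45-fold). Aldoa, the aldolase of muscle and most cells, rose from 229 ± 15 to 374 ± 5.2 FPKM, and Tpi1, triosephosphate isomerase, from 191 ± 8.5 to 377 ± 6.9 FPKM. The brain-type aldolase gene Aldoc stayed below the filter, between 0.155 and 0.269 FPKM in all libraries.

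The bifunctional PFKFB enzymes set fructose-2,6-bisphosphate, an activator of phosphofructokinase. Pfkfb3, which favours its synthesis, was at 6.64, 6.16, 6.84, 6.18 and 6.31 FPKM in MC38 and at 5.91, 6.59, 6.34, 6.33 and 6.48 in MC38.T4, with ranges that overlapped. Its log2 difference was -0.018 (SE 0.042, adjusted p = 0.694), and under quantile normalization it was called lower (-0.10, adjusted p = 0.0307), within adjusted p of 0.0307 to 1 in 20 alternatives. Pfkfb4 was at 1.85, 1.97, 1.88, 2.08 and 1.81 FPKM in MC38 and at 3.03, 2.74, 3.06, 3.23 and 2.85 in MC38.T4. It rose 1.55-fold (log2 difference 0.45, SE 0.048, adjusted p = 3.58e-07) and went from 23.0% ± 1.6 to 32.0% ± 2.0 of the FPKM of this pair.

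All 5 tested genes of lower glycolysis rose, with a median log2 difference of 1.04. Gapdh, which makes NADH from glyceraldehyde-3-phosphate, led them with 263, 283, 287, 283 and 276 FPKM in MC38 and 818, 777, 775, 775 and 790.2 FPKM in MC38.T4. No library of one line came near the other line, and the rise was 2.83-fold (log2 difference 1.5, SE 0.035, adjusted p = 1.06e-14). The kinase gene Pgk1 rose from 395 ± 6.5 to 815 ± 27 FPKM, and the mutase gene Pgam1 from 336 ± 14 to 577 ± 25 FPKM. Pkm, pyruvate kinase, rose from 453 ± 32 to 955 ± 13 FPKM (2.11-fold). The values are per gene and do not separate its M1 and M2 splice forms. Eno1, the widely expressed enolase, was the highest of all 47 genes in MC38 and changed least in this group, from 604, 690.1, 719.8, 662 and 701 FPKM in MC38 to 917, 867, 853, 844 and 877 FPKM in MC38.T4. The lines did not overlap, with MC38 replicate 1 lowest, and the rise was 1.29-fold (log2 difference 0.37, SE 0.047, adjusted p = 2.93e-06). The neuronal enolase gene Eno2 was listed at 0 in all MC38 libraries and 2 MC38.T4 libraries, and at most at 0.0249 FPKM in the other 3.

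Many of these genes have processed copies, and how reads shared with a copy were counted is not given in the sources used here. Of 20 rows whose symbols name a copy or a testis form, 11 were listed at 0 in all libraries and 3 reached 1 FPKM. Pgk1-rs7, a copy related to Pgk1, ranged from 0.865 to 16.2 FPKM in MC38 and from 11.2 to 46.1 in MC38.T4, while Pgk1 itself ranged from 389 to 405 and from 768 to 833 FPKM. Eno1b ranged from 1.36 to 2.30 FPKM in MC38 and from 2.68 to 3.92 in MC38.T4, and Pgam1-ps2 from 1.60 to 4.50 and from 1.59 to 7.12. Values of Pgk1, Eno1 and Pgam1 are uncertain where reads could be shared with these rows. Copies under symbols of another form were not looked for, so the same may hold for other genes here.

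Pyruvate has a choice between lactate and mitochondria. All 6 genes of the lactate and pyruvate dehydrogenase group rose (median log2 difference 0.88), where 43.1% of all tested genes were called higher. Genes of this fork that were counted outside the group went both ways. Among them, Dld, Mpc2, Pdk2 and Slc16a1 fell, while Mpc1, Pdhx, Pdk3 and Slc16a3 rose. Both lactate dehydrogenase genes rose, by unequal amounts. Ldha, whose subunit forms the muscle-type enzyme, was at 306, 337, 329, 318 and 312 FPKM in MC38 and 703, 707, 701, 706 and 692 FPKM in MC38.T4. Ldhb, whose subunit forms the heart-type enzyme, was at 1.25, 1.25, 1.40, 1.13 and 1.42 FPKM in MC38 and at 21.5, 21.0, 21.4, 23.4 and 21.5 FPKM in MC38.T4. In both genes every MC38.T4 library exceeded every MC38 library, and for Ldhb MC38.T4 replicate 4 was the highest. Ldha rose 2.19-fold (log2 difference 1.13, SE 0.035, adjusted p = 1.58e-13). Ldhb rose 16.9-fold (log2 difference 3.31, SE 0.046, adjusted p = 5.56e-17), the largest difference of the 45 tested genes. With a pseudocount of 0.1 its log2 difference was 3.98. Ldhb remained the minor form, at 0.401% ± 0.040 of lactate dehydrogenase FPKM in MC38 and 3.01% ± 0.12 in MC38.T4, and Ldha was 250.3 ± 25 times as high as Ldhb in MC38 and 32.3 ± 1.3 times in MC38.T4.

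The promoters of Ldha and Ldhb are shown because Ldhb had the largest difference of the tested genes and Ldha is the major form of the same step, again from RefSeq on GRCm38.p6 with capitals for ACGTG or GCGTG on either strand. Ldha lies at chr7:46845554-46845853 on the plus strand, the more upstream of 2 starts in the table, and Ldhb at chr6:142507908-142508207 on the minus strand.
Ldha: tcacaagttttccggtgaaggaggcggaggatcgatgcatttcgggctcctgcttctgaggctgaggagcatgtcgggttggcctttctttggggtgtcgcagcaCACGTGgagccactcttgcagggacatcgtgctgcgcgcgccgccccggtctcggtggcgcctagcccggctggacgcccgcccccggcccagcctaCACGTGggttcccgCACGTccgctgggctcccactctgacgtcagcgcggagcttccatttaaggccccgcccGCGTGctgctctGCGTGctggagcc
Ldhb: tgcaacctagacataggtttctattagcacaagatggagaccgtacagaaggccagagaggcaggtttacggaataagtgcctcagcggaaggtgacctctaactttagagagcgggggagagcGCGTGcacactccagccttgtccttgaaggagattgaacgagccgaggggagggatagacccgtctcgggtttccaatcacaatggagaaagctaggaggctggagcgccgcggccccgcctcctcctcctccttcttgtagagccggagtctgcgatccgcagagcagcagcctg
The Ldha window held ACGTG 5 times, counting both strands of 2 CACGTG palindromes once per strand, and GCGTG 2 times. The Ldhb window held GCGTG 1 time and no ACGTG.

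On the mitochondrial side, 3 subunit genes of pyruvate dehydrogenase and Pdk1, a gene for a kinase that inhibits it, rose. Dld, the subunit shared with another complex and described with the TCA cycle, fell. Pdha1 and Pdhb, the subunits of the decarboxylase, rose from 40.8 ± 1.2 to 63.4 ± 1.8 FPKM and from 51.3 ± 2.9 to 72.0 ± 1.5 FPKM. Dlat, the acetyltransferase core, rose from 23.0 ± 0.74 to 35.7 ± 0.96 FPKM, so these 3 genes rose between 1.40-fold and 1.56-fold. Pdk1, the kinase that switches the complex off, was at 6.62, 5.92, 6.28, 6.19 and 6.2 FPKM in MC38 and at 22.3, 25.4, 23.7, 22.7 and 24.4 FPKM in MC38.T4. The lines were far apart, with a 3.79-fold rise (log2 difference 1.77, SE 0.042, adjusted p = 1.15e-14).

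In the pentose phosphate pathway 4 of 6 genes rose and none fell (median log2 difference 0.50), and the entry enzyme moved most. G6pdx, the glucose-6-phosphate dehydrogenase that makes the first NADPH, was at 16.0, 17.6, 17.7, 16.9 and 18.2 FPKM in MC38 and at 56.6, 56.9, 55.3, 58.1 and 57.1 FPKM in MC38.T4. All MC38.T4 libraries lay far above MC38, and the gene rose 3.29-fold (log2 difference 1.66, SE 0.036, adjusted p = 4.81e-15). Pgd, the second NADPH-making dehydrogenase, rose from 54.2 ± 2.1 to 78.0 ± 2.7 FPKM. In the non-oxidative part, Rpia, the ribose-5-phosphate isomerase, rose from 10.5 ± 0.40 to 15.1 ± 0.65 FPKM and Tkt, transketolase, from 54.0 ± 2.9 to 89.0 ± 4.4 FPKM. Taldo1, transaldolase, which works beside transketolase, was at 89.9, 106, 96.9, 94.5 and 102 FPKM in MC38 and at 97.7, 98.6, 98.2, 99.3 and 90.2 FPKM in MC38.T4. These ranges overlapped (log2 difference -0.015, SE 0.045, adjusted p = 0.767). Rpe, the epimerase, averaged 19.0 ± 0.61 FPKM in MC38 and 20.1 ± 0.59 in MC38.T4 (difference 0.076 on the log2 scale, SE 0.035, adjusted p = 0.0528). Rpe was called higher without MC38 replicate 1 (adjusted p = 0.024), MC38 replicate 4 (0.0455), MC38.T4 replicate 4 (0.0376) or MC38.T4 replicate 5 (0.0466). So it was with quantile normalization (0.0315) and without both MC38 replicate 1 and MC38.T4 replicate 4 (0.0155). Its adjusted p lay between 0.0155 and 0.532 in 20 alternatives.

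The TCA cycle with its cytosolic partners was mixed: 10 of 15 genes rose, 3 fell and 2 were not called, with a median log2 difference of 0.50. Citrate synthase (Cs), which starts the cycle, was at 144, 144, 145, 134 and 141 FPKM in MC38 and at 122, 125, 124, 121 and 126 FPKM in MC38.T4. Each MC38.T4 library was below each MC38 library, though by a small step (log2 difference -0.19, SE 0.031, adjusted p = 3.56e-05). The NADP-linked isocitrate dehydrogenases rose in parallel. Idh1, in the cytosol, was at 5.97, 6.02, 5.84, 6.31 and 6.38 FPKM in MC38 and at 16.0, 15.7, 16.2, 17.2 and 16.2 in MC38.T4, and Idh2, in mitochondria, was at 20.1, 23.2, 20.4, 20.3 and 21.0 FPKM in MC38 and at 60.0, 60.4, 55.8, 63.5 and 57.3 in MC38.T4. The groups did not overlap for either gene, Idh1 rose 2.67-fold and Idh2 2.83-fold, and the share of Idh2 was 77.5% ± 1.2 and 78.5% ± 0.77, with ranges that overlapped.

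NAD-linked isocitrate dehydrogenase, the form that drives the cycle, is built from alpha, beta and gamma subunits, and their genes moved apart. Idh3g, the gamma subunit, was at 26.3, 24.8, 26.5, 25.8 and 25.0 FPKM in MC38 and at 70.7, 71.5, 76.2, 78.9 and 75.3 FPKM in MC38.T4, a rise of 2.90-fold (log2 difference 1.5, SE 0.037, adjusted p = 1.7e-14). Idh3a, the catalytic alpha subunit, was at 67.3, 70.5, 68.9, 71.8 and 67.6 FPKM in MC38 and at 73.3, 73.8, 76.2, 72.4 and 72.0 FPKM in MC38.T4. Idh3b was at 48.7, 52.0, 54.2, 52.1 and 52.8 FPKM in MC38 and at 49.8, 53.1, 52.3, 49.0 and 51.1 FPKM in MC38.T4. The lines were well apart for Idh3g, only just apart for Idh3a and overlapping for Idh3b. Idh3a was called higher (log2 difference 0.086, SE 0.031, adjusted p = 0.0172), but not when FPKM were turned into TPM (adjusted p = 0.274) or scaled to equal medians (0.0967). Its adjusted p lay between 0.00129 and 0.274 in 20 alternatives. For Idh3b the log2 difference was -0.025 (SE 0.036, adjusted p = 0.523). Idh3a was 2.70 ± 0.12 times as high as Idh3g in MC38 and 0.988 ± 0.052 times in MC38.T4, and the gamma share of the summed FPKM went from 17.5% ± 0.64 to 37.4% ± 1.3.

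The 2-oxoglutarate dehydrogenase complex also split by subunit. Ogdh, the decarboxylase, rose from 25.8 ± 1.2 to 36.3 ± 1.0 FPKM and Dlst, the succinyltransferase core, from 50.3 ± 1.4 to 71.8 ± 2.1 FPKM. Dld, the dihydrolipoyl dehydrogenase that this complex shares with pyruvate dehydrogenase, was at 87.9, 88.5, 85.2, 86.8 and 83.6 FPKM in MC38 and at 66.5, 68.3, 71.2, 65.2 and 65.7 FPKM in MC38.T4. All MC38.T4 libraries were lower, with a log2 difference of -0.35 (SE 0.033, adjusted p = 7.37e-08). Dld was 1.72 ± 0.078 times as high as Dlst in MC38 and 0.939 ± 0.050 times in MC38.T4.

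Succinyl-CoA ligase pairs an alpha subunit with a beta subunit that decides between ATP and GTP. Suclg1, the alpha subunit, rose from 30.0 ± 2.3 to 73.1 ± 4.0 FPKM (2.44-fold). Suclg2, the GTP-type beta subunit, was at 37.6, 39.5, 36.2, 37.1 and 37.2 FPKM in MC38 and at 64.4, 65.9, 69.5, 65.6 and 63.7 FPKM in MC38.T4. Sucla2, the ATP-type beta subunit, was at 38.5, 42.7, 40.1, 39.8 and 37.2 FPKM in MC38 and at 38.3, 36.7, 39.5, 37.1 and 36.4 FPKM in MC38.T4. Suclg2 ranges were apart and those of Sucla2 overlapped. Suclg2 rose 1.75-fold (log2 difference 0.79, SE 0.034, adjusted p = 7.23e-12), and its share of the pair went from 48.6% ± 1.0 to 63.6% ± 0.57. The log2 difference of Sucla2 was -0.073 (SE 0.039, adjusted p = 0.0938), and it was called lower when FPKM were turned into TPM (adjusted p = 0.012), with equal medians (0.027) and without MC38 replicate 5 (0.0359). Its adjusted p lay between 0.012 and 0.25 in 20 alternatives.

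Fh1, fumarase, rose from 17.4 ± 0.96 to 33.4 ± 0.67 FPKM. The malate dehydrogenases went opposite ways. Mdh1, in the cytosol, was at 30.5, 34.5, 32.5, 31.3 and 33.2 FPKM in MC38 and at 76.8, 78.8, 82.5, 80.7 and 76.6 FPKM in MC38.T4. Mdh2, in mitochondria, was at 254, 284, 280.4, 273 and 284 FPKM in MC38 and at 233, 227, 229, 231 and 225 FPKM in MC38.T4. No library crossed between the lines, with Mdh1 higher and Mdh2 lower in MC38.T4. Mdh1 rose 2.44-fold (log2 difference 1.26, SE 0.038, adjusted p = 1.18e-13) and Mdh2 had a log2 difference of -0.26 (SE 0.036, adjusted p = 6.8e-06). Their sum was 307 ± 14 and 308 ± 4.2 FPKM, while Mdh2 went from 8.49 ± 0.21 to 2.90 ± 0.093 times the level of Mdh1.

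All 3 genes for malic enzymes and pyruvate carboxylase rose. Pcx, which makes oxaloacetate from pyruvate to refill the cycle, was at 1.62, 1.77, 1.58, 1.46 and 1.45 FPKM in MC38 and at 9.30, 8.66, 8.65, 8.33 and 8.85 FPKM in MC38.T4. The lowest MC38.T4 library was several times above the highest MC38 library, with a 5.56-fold rise (log2 difference 1.92, SE 0.047, adjusted p = 1.51e-14). Me1, the cytosolic malic enzyme and another source of NADPH, was at 49.8, 49.8, 49.0, 51.3 and 49.4 FPKM in MC38 and at 70.9, 72.8, 71.6, 72.5 and 71.7 in MC38.T4. Me2, the mitochondrial form, was at 25.1, 24.0, 22.3, 23.8 and 22.4 FPKM in MC38 and at 39.7, 41.0, 42.8, 35.4 and 38.6 in MC38.T4. Both were higher in every MC38.T4 library. Me1 rose 1.44-fold (adjusted p = 9.13e-11) and Me2 1.68-fold (adjusted p = 1.62e-09), and the share of Me2 was 32.0% ± 0.98 and 35.4% ± 1.7, with overlapping ranges.

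Isoenzyme and subunit shares were also set side by side. Of 11 steps with more than 1 gene, the shares of the enolases, the NADP isocitrate dehydrogenases and the malic enzymes overlapped between the lines. Those of the other 8 did not, among them aldolase, where Aldoc lay below the filter. For single genes, ranges did not overlap in 77.4% of all tested genes, so such gaps were common in this comparison. No test was run on shares, which are descriptions of 5 libraries a line. The platelet-type share of phosphofructokinase went from 28.8% ± 1.1 to 6.29% ± 0.45 and the cytosolic share of malate dehydrogenase from 10.5% ± 0.24 to 25.7% ± 0.61. Idh3a went from 47.1% ± 0.84 to 36.9% ± 0.71 of NAD isocitrate dehydrogenase and Idh3b from 35.4% ± 0.91 to 25.6% ± 0.82. Aldoc was at 0.107% ± 0.012 and 0.0546% ± 0.012 of aldolase, and Eno2 at 0% and 0.00159% ± 0.0015 of the Eno1 and Eno2 sum.

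**Figure D3:**
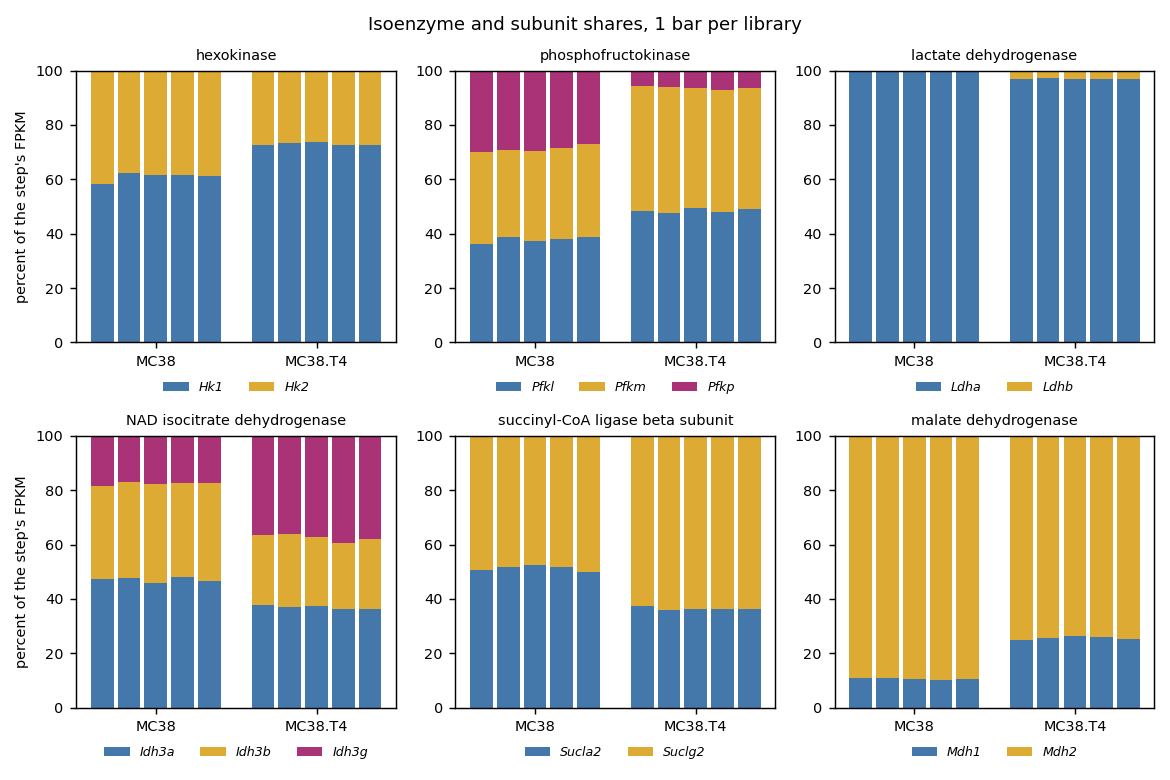
Percent of the summed FPKM of a step taken by each isoenzyme or subunit gene, with 1 stacked bar for each of the 5 MC38 and 5 MC38.T4 libraries. Bars within a line are alike, while Pfkp shrinks from 28.8% to 6.29% of phosphofructokinase and Idh3g grows from 17.5% to 37.4% of NAD isocitrate dehydrogenase.

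In order of level, Eno1, Pkm, Pgk1, Pgam1, Ldha and Gapdh were the 6 highest of the 47 genes in MC38, and the same 6 genes were the highest in MC38.T4 with Pkm first. Several neighbours in this order overlapped in MC38: Pkm (403 to 483 FPKM) with Pgk1 (389 to 405), Pgam1 (320.3 to 357) with Ldha (306 to 337), and Gapdh (263 to 287) with Mdh2 (254 to 284). Among the 6 highest in MC38.T4, Pgk1 (768 to 833 FPKM) overlapped with Gapdh (775 to 818). Within glycolysis, the hexokinase genes gave the lowest sum of any step from glucose to pyruvate in both lines, 23.1 ± 0.20 FPKM in MC38 and 38.2 ± 0.98 in MC38.T4. Dld moved from rank 12 to rank 22 and Idh3g from rank 27 to rank 16.

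Of 55 other genes of these pathways, taken as a list, 35 were tested, 26 rose and 9 fell, with a median log2 difference of 0.49. That is 74.3% and 25.7%, against 43.1% and 42.9% over all tested genes. Pfkfb1 and Dhtkd1, given below, passed the filter through 1 line alone. By difference on the log2(FPKM + 1) scale, the largest rises among them were those of Pgm1, Slc2a1, Pck2 and Pgls. Pgm1, a phosphoglucomutase that links glycogen and glycolysis, rose from 16.9 ± 0.30 to 60.7 ± 0.79 FPKM. Slc2a1, the glucose transporter GLUT1, rose from 13.6 ± 1.1 to 46.9 ± 1.8 FPKM. Pck2, the mitochondrial carboxykinase that makes phosphoenolpyruvate, rose from 11.1 ± 0.83 to 34.2 ± 1.4, and Pgls, the lactonase between G6pdx and Pgd, from 19.4 ± 1.3 to 49.1 ± 2.8. Ranks by fold differ, with Pfkfb1 at 6.29-fold and Pgm1 at 3.60-fold. On the log2(FPKM + 1) scale the largest falls were those of Mpc2, Tigar, Txnip and Slc16a1. Mpc2, a subunit of the mitochondrial pyruvate carrier, fell from 49.3 ± 1.9 to 20.1 ± 1.7 FPKM, and Tigar, a fructose-2,6-bisphosphatase, from 15 ± 0.55 to 8.58 ± 0.21. Txnip, which restrains glucose uptake, fell from 128 ± 6.4 to 80.7 ± 9.6 FPKM, and Slc16a1, the lactate carrier MCT1, from 68.6 ± 3.2 to 47.3 ± 1.5. The other subunit gene of the pyruvate carrier, Mpc1, went the other way (33.8 ± 3.0 to 56.9 ± 4.8 FPKM). So did Slc16a3, the lactate exporter MCT4 (56.2 ± 1.6 to 79.6 ± 3.6). All genes printed here with their FPKM passed limma, with an adjusted p of at most 2.98e-07.

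Some isoenzymes and subunits outside the 47 genes were measured too. Of the succinate dehydrogenase subunits Sdha, Sdhb and Sdhd rose and Sdhc fell (73.0 ± 7.0 to 54.1 ± 2.9 FPKM). The muscle enolase gene Eno3 was far above Eno2 and rose from 12.6 ± 0.77 to 18.5 ± 1.0 FPKM. Among the pyruvate dehydrogenase kinases Pdk3 rose (29.7 ± 1.3 to 37.3 ± 1.6 FPKM), Pdk2 fell (3.39 ± 0.27 to 2.46 ± 0.1) and Pdk4 reached the filter in neither line. The genes of the opposing phosphatases rose too, Pdp1 from 3.37 ± 0.27 to 5.85 ± 0.21 FPKM and Pdp2 from 2.24 ± 0.091 to 3.28 ± 0.20. Pdpr, their regulatory subunit, rose from 3.83 ± 0.81 to 7.55 ± 0.44 FPKM. Pfkfb1 rose from 0.320 ± 0.094 to 2.01 ± 0.26 FPKM, having passed the filter through MC38.T4 alone, and Pfkfb2 from 2.08 ± 0.25 to 3.25 ± 0.28. H6pd, the form of glucose-6-phosphate dehydrogenase in the endoplasmic reticulum, rose from 5.65 ± 0.32 to 11.7 ± 0.31 FPKM, Pdhx, a further pyruvate dehydrogenase subunit, from 11.8 ± 0.50 to 16.7 ± 0.55, and Aco1, the cytosolic aconitase, from 30.8 ± 1.0 to 44.0 ± 0.90. Dhtkd1, a relative of Ogdh, passed the filter through MC38 alone and fell from 1.33 ± 0.072 to 0.727 ± 0.070 FPKM. Hk3, Hkdc1, Pgk2, Gapdhs, Pklr, Ldhc, Ldhd, Tktl1, Ogdhl and Me3 each averaged below 0.1 FPKM in both lines, and Pgam2 averaged 0.347 ± 0.17 and 0.459 ± 0.075 FPKM.

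Promoter letters were counted over the whole set, with 45 of the 47 genes matched to 67 promoters of 300 bases in the RefSeq table. ACGTG on either strand was in 38.8% of these 67, in 26.2% of the 11085 promoters of tested genes and in 19.6% of all 32851. GCGTG was in 53.7%, 52.0% and 32.4%, and the E-box CACGTG, which contains ACGTG, in 10.4%, 10.2% and 7.15%. TCACNCCAC, a form of the sterol regulatory element, was in 2 of the 67 (Aldoc and Pkm) and in 1.24% of all promoters. Promoters of 1 gene can overlap, and these shares are descriptions without a test.

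Neighbouring genes on the chromosome gave a local background for each enzyme gene. The order of genes in the RefSeq table of GRCm38.p6 gave each tested gene up to 20 tested neighbours, 10 on each side. Medians of the neighbours' log2 differences lay between -0.66 and 0.56, with a median of 0.04. Of the 36 genes that rose, 22 had neighbours with a median above 0, and 29 rose by more than the upper quartile of their neighbours. The 36 were picked for their rise, which favours such a count. The same counts were not made for other genes that rose, so they cannot set the enzyme genes apart. Ldhb exceeded all 20 of its neighbours (their median 0.19), as did Hk1 (-0.66), Pdk1 (-0.17), Idh1 (0.12), Idh2 (-0.33) and Mdh1 (-0.41). Among the falls, Dld and Cs lay beside neighbours with medians of -0.55 and -0.48, and Pfkp and Mdh2 beside -0.45 and -0.25. For Idh3g, which had a median of 0.40 around it, 5 of 20 neighbours rose more than the gene, and for Tpi1 7 of 20 did.

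**Figure D4:**
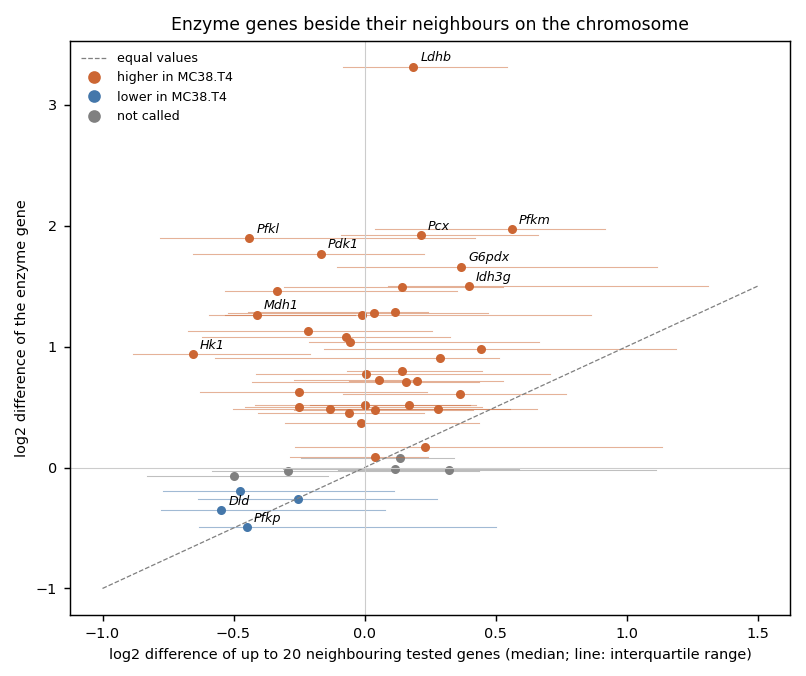
Log2 difference of each of the 45 tested enzyme genes (vertical) against the median log2 difference of its tested neighbours on the chromosome (horizontal), with a line for the interquartile range of the neighbours and a dashed line where both are equal. Points of Ldhb, Pfkl and Pdk1 lie far above the dashed line, and those of Pfkp and Mdh2 lie close to it.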

How the data were processed

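PolyA-selected RNA of 10 libraries, 5 per line, was sequenced with a strand-specific kit, per the labels' protocols. The authors deposited 1 table of FPKM by gene symbol. Build GRCm39 and DESeq2, without a version or role, come from the submitters' processing notes, and no aligner, counter or annotation is named: not given in the sources used here. FPKM depend on the library total, so genes that take a larger share lower the others. The read depth is unknown, so no counting interval is attached.

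Fits used limma 3.58.1 in R 4.3.3 on log2(FPKM + 1) for all 11110 genes with at least 1 FPKM in at least 5 libraries, with trend and robust moderation, a group term only, two-sided, Benjamini-Hochberg adjusted over all tested genes, with a threshold of 0.05. Simulated data with 11110 genes held 100 genes set to change by 0.25 and 100 set to change by 1 (log2). Of these 76% and 100% were given back, and 5.88% of calls were unchanged genes. In the real data 86% of tested genes were called, so these rates need not carry over. Python 3.11.15, pandas 2.3.3, NumPy 2.4.6 and matplotlib 3.10.9 made shares, sums, neighbours and figures. The enzyme genes and lists were chosen with earlier results of these data known. All 47 genes are named, with values per library for isoenzymes and the largest rise or fall of each pathway. Of the 55 further genes, at most 4 rises and 4 falls are named, plus isoenzymes, missing subunits and the pyruvate dehydrogenase phosphatases. Some of these further genes are not reported here. Alternatives were other pseudocounts, filters, scalings, moderation, an exact rank-sum test, a replicate block, left-out libraries and a log2 limit of 1.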

Additional observations from a re-analysis of the deposited data

Results flagged for a closer look

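Within the 5 libraries of a line, 1 library stood far from the other 4 in 5 of 124 groups of values examined, and chance gives about 1 in 20. In MC38.T4 replicate 4 Ldhb reached 23.4 FPKM, and the remaining libraries of the line gave 21.0 to 21.5. Taldo1 had 90.2 FPKM in MC38.T4 replicate 5, where the others had 97.7 to 99.3. Idh2 was at 23.2 FPKM in MC38 replicate 2, against 20.1 to 21.0 in the others. Ogdh had 38.0 FPKM in MC38.T4 replicate 1, where the others had 35.5 to 36.2. The share of Hk1 in hexokinase FPKM was 58.5% in MC38 replicate 1, against 61.1% to 62.2% in the others.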

How the results depend on the processing

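Over 20 alternatives, 35 to 37 of the 45 tested enzyme genes were called higher and 4 or 5 lower, and 41 of the 45 kept their side of the threshold in each alternative that tested them. Pfkfb4, one of the 41, was not tested with a minimum of 5 FPKM, which leaves it 19 alternatives. The exceptions were Idh3a, Rpe, Sucla2 and Pfkfb3, whose values stand in the report, and no called gene changed direction. With a log2 limit of 1 the counts fell by construction, to 16 higher and 0 lower enzyme genes, 6 higher and 1 lower of the further pathway genes, and 1113 higher and 793 lower of all tested genes.

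Adding a pseudocount of 1 before taking shares moved some of them by more than 1 SD: Hk2 to 28.1% in MC38.T4, Pfkp to 7.16% in MC38.T4, Pfkfb4 to 28.2% in MC38 and 35.2% in MC38.T4, and Aldoc to 0.540% and 0.320%. Eno2 went to 0.148% and 0.116%, Ldhb to 0.708% and 3.14%, Idh2 to 75.6% in MC38 and Mdh2 to 89.2% in MC38. The lines share replicate numbers, and the main fit did not pair them. Deviations of same-numbered libraries correlated between -0.129 and 0.142, and for replicates 1 and 2 the own number correlated best. These values cannot tell whether the numbers mark pairs. With the number as a replicate block 36 enzyme genes were called higher and 4 lower, and 4784 and 4750 of all tested genes. Genes below 1 FPKM, such as Aldoc and Eno2, were not tested, and no depth is given that would bound them.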
